A study of Mus musculus with 59 samples.

Results

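Elmod2, Tbc1d9, Rnf150, Mgat4d, Clgn and Scoc are protein-coding genes that lie next to Ucp1 on mouse chromosome 8. They were chosen by position, after a difference between BATKO mice and their controls had been seen at this locus, and make up 6 of the 55341 genes counted. The RNA-seq counts came from the brown adipose tissue (BAT) of 59 male C57BL/6J mice aged 8-12 weeks, in 15 groups and 3 experiments. In the TH experiment, mice were made hypothyroid with propylthiouracil (PTU) and received thyroid hormone (TH). There were 4 wild-type (WT) mice on PTU, 4 more WT mice for each of the times 3, 6, 12 and 24 h after TH, and 5 BATKO mice each on PTU and at 24 h. In the temperature experiment, 3 control (CTRL) and 4 BATKO mice were at 4 °C and 4 CTRL and 5 BATKO mice at 30 °C, for 24 h. In the diet experiment, 4 CTRL and 3 BATKO mice had a high-fat diet (HFD) and 4 CTRL and 2 BATKO mice had Chow, for 3.5 days. The genetic change carried by BATKO mice, and the promoter behind it, are not described in the sources used here, so no targeted gene could be checked. The controls of the TH experiment were labelled wild-type and those of the other experiments CTRL.

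Ucp1 encodes the uncoupling protein of brown fat mitochondria, which lets protons return across the inner membrane so that respiration gives heat. Its transcription is known to rise with cold, through noradrenaline, and with TH, through TH receptors (TR). The genes beside it have other roles. Elmod2 encodes a GTPase-activating protein for the small GTPase Arl2, Tbc1d9 a protein with a TBC domain as found in GTPase-activating proteins for Rab GTPases, and Rnf150 a membrane protein with a RING finger. Scoc encodes a short coiled-coil protein of the Golgi, Clgn the chaperone calmegin of the testis endoplasmic reticulum, and Mgat4d a testis protein of the glycosyltransferase family.

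In GRCm38, Ucp1 lies on the plus strand of chromosome 8 from 83290352 to 83298452. Before it come Rnf150 (82863356 to 83091268, plus strand, 199 kb from Ucp1) and Tbc1d9 (83165352 to 83272934, plus strand, 17.4 kb from Ucp1). Beyond it, Elmod2 runs from 83312632 to 83332486 on the minus strand, so that it ends 14.2 kb from the end of Ucp1. Mgat4d (83348471 to 83382320, plus strand) and Clgn (83389867 to 83428552, plus strand) follow at 50.02 and 91.4 kb, and Scoc (83430084 to 83458391, minus strand) at 132 kb. Elmod2, Clgn and Scoc overlapped no other annotated gene. An antisense gene, Gm45449, shared 782 exon bases with Rnf150, and Gm10645, on the opposite strand, shared 819 with Tbc1d9. These overlapping genes held at most 3 and 2 counts in any mouse.

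The promoter windows of the 2 genes on which the results turn, and of Ucp1 between them, are shown as in RefSeq (GRCm38.p6), from 250 bases before the start of the gene to 50 after it. Capitals mark AGGTCA, the hexamer that TR recognizes, where it was found on either strand.
Elmod2 promoter, chr8:83332437-83332736, minus strand: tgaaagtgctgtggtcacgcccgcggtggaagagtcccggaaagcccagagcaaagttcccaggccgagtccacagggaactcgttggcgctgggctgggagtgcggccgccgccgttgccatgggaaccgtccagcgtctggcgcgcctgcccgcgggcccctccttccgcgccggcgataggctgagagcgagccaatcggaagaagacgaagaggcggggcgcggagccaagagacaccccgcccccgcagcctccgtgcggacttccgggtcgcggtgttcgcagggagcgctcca
Tbc1d9 promoter, chr8:83165102-83165401, plus strand: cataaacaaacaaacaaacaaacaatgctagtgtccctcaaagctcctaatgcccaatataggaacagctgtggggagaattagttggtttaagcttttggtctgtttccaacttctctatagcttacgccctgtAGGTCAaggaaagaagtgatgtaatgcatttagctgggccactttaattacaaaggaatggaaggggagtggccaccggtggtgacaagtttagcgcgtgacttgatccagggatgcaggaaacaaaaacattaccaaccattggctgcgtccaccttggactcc
Ucp1 promoter, chr8:83290098-83290397, plus strand: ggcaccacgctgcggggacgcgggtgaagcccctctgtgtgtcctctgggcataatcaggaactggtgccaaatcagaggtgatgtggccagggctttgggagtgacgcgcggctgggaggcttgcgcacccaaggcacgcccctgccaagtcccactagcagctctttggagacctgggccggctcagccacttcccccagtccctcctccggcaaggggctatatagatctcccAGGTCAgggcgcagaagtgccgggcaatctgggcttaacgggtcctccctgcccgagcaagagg
The window of Tbc1d9 held the hexamer once, 115 bases before the start, and that of Ucp1 once, 14 bases before the start. Those of Elmod2, Mgat4d and Scoc did not hold it. Of 32851 promoter windows, 16.3% held it. A direct repeat of 2 hexamers with a 4-base spacer was in 0.0152% of windows and in none of these. A match is a match of letters in these windows only. The window of Elmod2 was 70% G or C, that of Ucp1 64.7% and that of Tbc1d9 45%. Windows were at hand for 4 of the 6 genes, not for Rnf150 and Clgn.

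Total counts were between 7612059 and 18073627 per mouse, and mitochondrial genes took 39.2% to 55.7% of them. In the TH experiment, BATKO mice had 13593987 to 18073627 counts and WT mice 7805938 to 14615534. The tissue label was checked with 10 brown adipocyte markers, all detected, which summed to between 6117 and 29180 CPM in each mouse. CPM is the count scaled by the library size after TMM normalization. These markers include Ucp1, so that their sum follows the level of Ucp1 in part. Skeletal muscle markers summed to between 0.639 and 7584 CPM. In bulk tissue, fewer cells of a type and less RNA per cell cannot be told apart. Male germ cell markers, of which 2 of 5 were detected, summed to between 0.0927 and 9.20 CPM.

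Of the 6 genes, Elmod2, Tbc1d9, Rnf150 and Scoc had a mean normalized count above 10 in every experiment and were tested. Clgn, with 0 to 5 counts per mouse, was at 0 in 24 of the 59 mice, and its counts summed to 59. Mgat4d, with 0 to 4 counts, was at 0 in 40 mice and summed to 27. The testis genes of the locus were therefore near or under what 3 counts can show. Mgat4d had 1 to 4 counts in each of the 4 BATKO mice at 4 °C, and at most 2 in any other group. The 5 BATKO mice at 30 °C held 1 count of it in all, and the 4 at 4 °C held 8. With no filter on the mean count, this was the 1 call among 18 tests of Mgat4d and Clgn (edgeR adjusted p = 0.0444), at counts too low for a fold change. Male germ cell markers summed to 1.43 to 5.68 CPM in these mice at 4 °C and 0.0927 to 1.04 at 30 °C, and their part was not tested. Clgn was at 0 in all 3 CTRL mice at 4 °C and all 4 WT mice at 24 h after TH. Per kb of exon, Elmod2 ranked first of the 6 genes in 28 mice and Scoc in 31. Elmod2 had 1.18 ± 0.199 CPM per kb (SD, n = 3) in CTRL mice at 4 °C and 17.9 ± 4.46 (SD, n = 4) in BATKO mice at 4 °C. Scoc moved between group means of 3.76 (BATKO, 30 °C) and 8.65 CPM per kb (WT, PTU). Rnf150 had rank 3 in 46 mice and Tbc1d9 rank 4 in 48.

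In 2 libraries, Elmod2 and Tbc1d9 went against their group. CTRL mouse 9 on HFD had 162 CPM of Elmod2, where the other 3 CTRL mice on HFD had 17.5 to 18.2, and 9.66 CPM of Tbc1d9, where they had 3.48 to 5.17. BATKO mouse 11 on PTU had 39.4 CPM of Elmod2 against 133 to 213 in the other 4, and 0.970 CPM of Tbc1d9 against 2.56 to 6.24. Both mice thus had Elmod2 and Tbc1d9 at the level of the other genotype or beyond it. Their Rnf150 levels (24.3 and 19.3 CPM) lay within the range of their group, and their Scoc levels (26.98 and 35.2 CPM) were the highest of their group. For 12 genes over 5 Mb from Ucp1 whose groups did not overlap, in the same direction, at 4 °C and 30 °C, BATKO mouse 11 was nearer the BATKO mean for 8 of 12. The other BATKO mice on PTU were nearer it for 9 to 11 genes and the WT mice on PTU for 0 to 2, so that mouse 11 was the lowest of its group. At 24 h after TH these counts were 8 to 10 in BATKO and 2 to 5 in WT mice. CTRL mouse 9 was nearer the BATKO mean for 5 of 11 genes, as 5 or 6 in the other CTRL mice on HFD and 6 to 9 in BATKO mice on HFD, so these genes hardly separated the genotypes on HFD. The label of neither mouse was changed, and the log2 differences and fold changes of Elmod2 and Tbc1d9 that rest on them are given with and without them. Skeletal muscle markers summed to 497 CPM in CTRL mouse 9 and to 0.762 to 73.6 in the other 3, and to 7.55 CPM in BATKO mouse 11 and 1.21 to 688 in the other 4. Their part in these values was not tested.

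**Figure D1:**
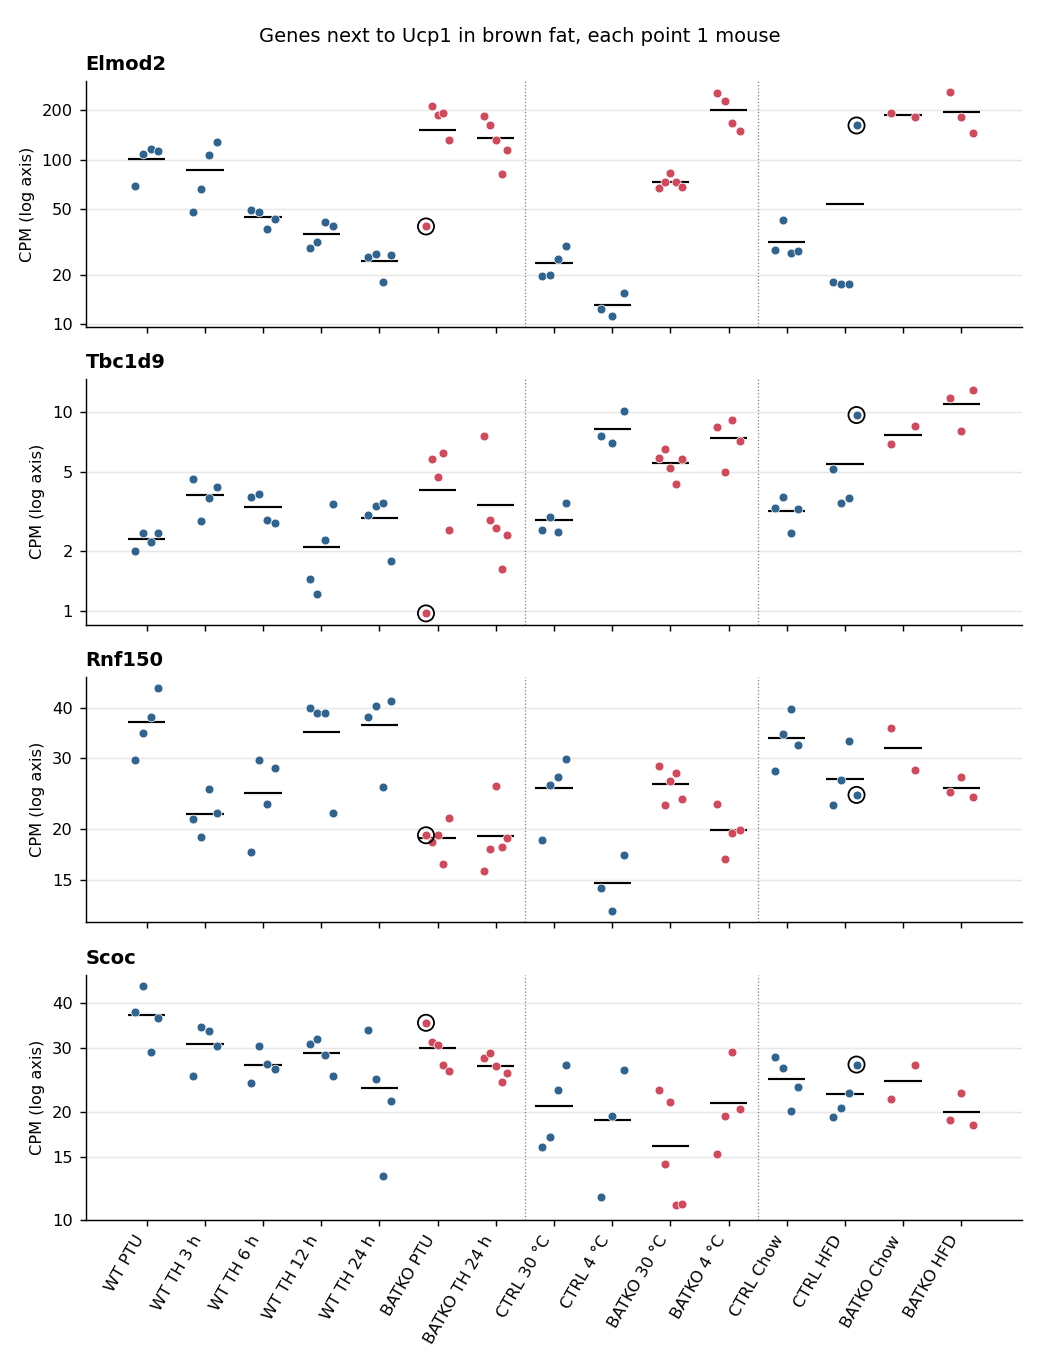
CPM of Elmod2, Tbc1d9, Rnf150 and Scoc in each of the 59 mice (points, log axes), by group (x axis), with group means as black bars, BATKO in red and CTRL or WT in blue. Circles mark CTRL mouse 9 on HFD and BATKO mouse 11 on PTU. Elmod2 was above 140 CPM in all BATKO mice at 4 °C and under 16 CPM in all CTRL mice at 4 °C.

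The genotype difference, which led to the choice of these genes, is described without a test. Elmod2 had the widest gap at 4 °C. It had 149, 167, 229 and 254 CPM in the 4 BATKO mice and 11.3, 12.4 and 15.6 CPM in the 3 CTRL mice, a ratio of means of 15.3 and a log2 difference of 3.93 (SE 0.22). The groups did not overlap, and in that comparison 6.11% of all genes tested were higher and 7.04% lower in BATKO without overlap. By log2 difference, Elmod2 was number 9 from the top of 13267 genes. At 30 °C, the 5 BATKO mice had 67.6, 68.8, 73.3, 73.5 and 83.1 CPM and the 4 CTRL mice 19.8, 20.0, 24.9 and 30.0 CPM. Here too the groups were apart, at 3.10 times the CTRL mean and a log2 difference of 1.63 (SE 0.17), number 13 of all genes. At 30 °C, 2.2% of genes were higher and 0.95% lower in BATKO without overlap. The summed brown adipocyte markers were 17180 to 25960 CPM in BATKO and 25500 to 29180 CPM in CTRL mice at 4 °C, and 6159 to 7464 against 6117 to 7536 CPM at 30 °C. Fibroblast or preadipocyte markers were apart at 4 °C, with 313 to 586 CPM in BATKO and 289 to 302 in CTRL mice, as were male germ cell markers, with 1.43 to 5.68 against 0.903 to 1.29 CPM. At 30 °C, macrophage markers were lower in BATKO without overlap (45.3 to 59.6 against 60.7 to 100.4 CPM), as were lymphocyte markers (3.48 to 5.18 against 5.73 to 7.83 CPM). The part of these cells in the differences was not tested.

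On Chow, the 2 BATKO mice had 183 and 192 CPM of Elmod2. The 4 CTRL mice had 27.3, 27.9, 28.5 and 43.2 CPM, so that the ratio was 5.92 and the log2 difference 2.57 (SE 0.68), number 26 of 12932 genes. The fit shares its spread over all diet mice, and without CTRL mouse 9 on HFD the difference on Chow was 2.55 (SE 0.21). The groups were apart, as for 9.16% of genes higher and 8.58% lower in BATKO. On Chow, macrophage markers summed to 147 to 183 CPM in BATKO and 57.5 to 69.1 in CTRL mice, and fibroblast or preadipocyte markers to 858 to 874 and 393 to 612. Lymphocyte markers were also higher in BATKO mice there (9.79 to 15.3 against 3.87 to 7.73 CPM) and Schwann cell markers lower (9.93 to 10.3 against 15.8 to 52 CPM), both without overlap. The part of these cells in the difference was not tested. On HFD, the 3 BATKO mice had 146, 183 and 258 CPM and the CTRL mice 17.5, 17.7, 18.2 and, in mouse 9, 162 CPM. The groups overlapped through that mouse, with a ratio of 3.63 and a log2 difference of 1.86 (SE 0.62), number 22 of 12932 genes. On HFD, 3.35% of genes were higher and 2.66% lower without overlap. No marker list was apart between the genotypes on HFD. Without CTRL mouse 9 the Elmod2 groups were apart, with a ratio of 11.0 and a log2 difference of 3.46 (SE 0.23).

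In the TH experiment the gap in Elmod2 was narrower on PTU than after TH. On PTU, WT mice had 69.2, 108, 113 and 116 CPM, and BATKO mice 39.4 (mouse 11), 133, 188, 192 and 213 CPM. The groups overlapped, with a ratio of 1.51 and a log2 difference of 0.59 (SE 0.31), number 4393 of 14178 genes. Without BATKO mouse 11 they were apart, with a log2 difference of 0.84 (SE 0.24) and a ratio of 1.79. On PTU, 31.5% of genes were higher and 28.3% lower in BATKO without overlap, so that a gap of this kind was common. At 24 h after TH, the WT mice had 18.1, 25.7, 26.3 and 26.9 CPM and the BATKO mice 82.1, 115, 132, 163 and 184 CPM. The groups were apart, as were 28% of genes in this direction and 26.6% in the other, with a ratio of 5.57. The log2 difference was 2.48 (SE 0.33, or 0.25 in the fit without BATKO mouse 11), number 1210 of 14178 genes. Endothelial markers summed to 390 to 439 CPM in BATKO and 294 to 315 in WT mice on PTU, and to 399 to 545 and 285 to 323 CPM at 24 h. Brown adipocyte markers were lower in BATKO mice on PTU, with 10100 to 12150 against 14950 to 16950 CPM. Of these sums, Ucp1 alone made 947 to 1744 and 4496 to 6121 CPM. The libraries of the BATKO mice were deeper. The part of these cells and of depth in the differences was not tested.

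Tbc1d9, on the other side of Ucp1, had a smaller log2 difference than Elmod2 in each comparison except that on PTU. At 30 °C it had 4.36, 5.22, 5.82, 5.88 and 6.49 CPM in BATKO mice and 2.49, 2.56, 2.96 and 3.50 CPM in CTRL mice, without overlap (log2 difference 0.95, SE 0.20). On Chow, the BATKO mice had 6.88 and 8.52 CPM and the CTRL mice 2.47, 3.25, 3.28 and 3.74 CPM, again without overlap. The log2 difference was 1.27 (SE 0.35), and 1.26 (SE 0.25) in the fit without CTRL mouse 9 on HFD. On HFD, the BATKO mice had 8.01, 11.8 and 12.9 CPM and the CTRL mice 3.48, 3.68, 5.17 and, in mouse 9, 9.66 CPM. The difference of 0.98 on the log2 scale was 1.40 without that mouse, and the groups were then apart. At 4 °C, Tbc1d9 did not share the gap of Elmod2. It had 4.99, 7.15, 8.46 and 9.16 CPM in BATKO and 7.00, 7.56 and 10.1 CPM in CTRL mice, which overlapped (log2 difference -0.15, SE 0.21). In the TH experiment the Tbc1d9 groups overlapped. On PTU the log2 difference was 0.83, and 1.08 and apart without BATKO mouse 11, where Elmod2 had 0.59 and 0.84. At 24 h after TH the Tbc1d9 difference was 0.24, and it turned to -0.31 without BATKO mouse 10, which had 7.56 CPM where the other 4 BATKO mice had 1.62 to 2.87.

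Rnf150 and Scoc, farther out, had smaller log2 differences than Elmod2 in the temperature and diet experiments. At 4 °C, that of Rnf150 was 0.43, that of Tbc1d9 -0.15 and that of Scoc 0.15. Rnf150 overlapped between genotypes at 4 °C, 30 °C, on Chow and on HFD, with log2 differences between -0.08 and 0.43. On PTU it was lower in BATKO without overlap, with 16.4, 18.6, 19.3, 19.4 and 21.3 CPM against 29.8, 34.6, 38.0 and 44.8 CPM in WT mice (log2 difference -0.95, SE 0.17). At 24 h after TH the log2 difference was -0.91 (SE 0.17), and the lowest WT mouse, at 25.5 CPM, lay just under the highest BATKO mouse, at 25.7 CPM. Scoc overlapped in all 6 comparisons, with log2 differences between -0.36 and 0.21. In total, the groups of Elmod2 were apart in 4 of 6 comparisons, those of Tbc1d9 in 2, those of Rnf150 in 1 and those of Scoc in 0. Without the 2 mice named above, the counts were 6, 4, 1 and 0, a rise that follows from leaving out mice picked for their Elmod2 and Tbc1d9 values and supports nothing. Among all genes, 33.8% were then higher and 30.1% lower in BATKO without overlap on PTU, and 5.67% and 4.26% on HFD. These comparisons are not alike, since the share of all genes apart was 2.2% higher and 0.95% lower in BATKO at 30 °C but 31.5% and 28.3% on PTU, where Rnf150 was apart. Ucp1 itself overlapped between genotypes in the temperature and diet experiments, with log2 differences between -0.63 and 0.39, and was lower in BATKO without overlap on PTU (-1.99) and at 24 h after TH (-2.74).

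The other genes of the region were placed beside these values. Within 2 Mb of Ucp1, 52 or 53 other genes were tested in each experiment. At 4 °C, 1 of 53 was higher and 4 were lower in BATKO without overlap, and their median log2 difference was -0.01, against 0.01 for all genes. At 30 °C, 4 of 53 were higher and 0 lower, and the median was 0.19 against 0.04. On Chow, 2 of 52 were higher and 6 lower, with a median of -0.07 against -0.03. On HFD 2 were higher and 1 lower, with a median of 0.01 against -0.001. Among all genes, 6.11% were higher and 7.04% lower without overlap at 4 °C, and 2.2% and 0.95% at 30 °C. These shares were 9.16% and 8.58% on Chow, and 3.35% and 2.66% on HFD. On PTU, 18 of 53 were higher and 12 lower, where 31.5% of all genes were higher and 28.3% lower without overlap, and the median was 0.39 against 0.02. At 24 h after TH, 12 were higher and 17 lower, where 28% and 26.6% of all genes were, and the median was 0.13 against 0.01. Over genes with a mean count above 50, the medians of the region were 0.066 on PTU and -0.26 at 24 h, and within 5 Mb the one on PTU was 0.11. The nearest tested genes beyond the 6 were Gm5910, 179 kb from Ucp1, and Zfp330, 516 kb away on the other side, with log2 differences of 0.21 and 0.41 at 4 °C. Both were higher in BATKO without overlap in the TH experiment, by 1.30 and 1.09 on PTU, where Elmod2 had 0.59, and by 1.51 and 1.40 at 24 h after TH, where it had 2.48. Among tested genes nearer than Zfp330 on the side of Elmod2, Gipc1 was higher and Ndufb7 and Adgre5 lower in BATKO without overlap on PTU (log2 differences of 1.30, -0.74 and -0.50). At 24 h after TH, Gipc1 (0.83) was higher and Ndufb7 (-1.08), Dnajb1 (-1.35), Ddx39 (-0.69) and Adgre5 (-0.61) lower. The highest log2 difference among the other genes was 1.12 at 4 °C (Syce2), 0.84 at 30 °C (Cacna1a), 0.83 on Chow (Asf1b) and 0.64 on HFD (Zswim4), all below Elmod2. In the TH experiment it was that of Hook2, at 2.46 on PTU and 3.09 at 24 h after TH, above Elmod2 both times.

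**Figure D2:**
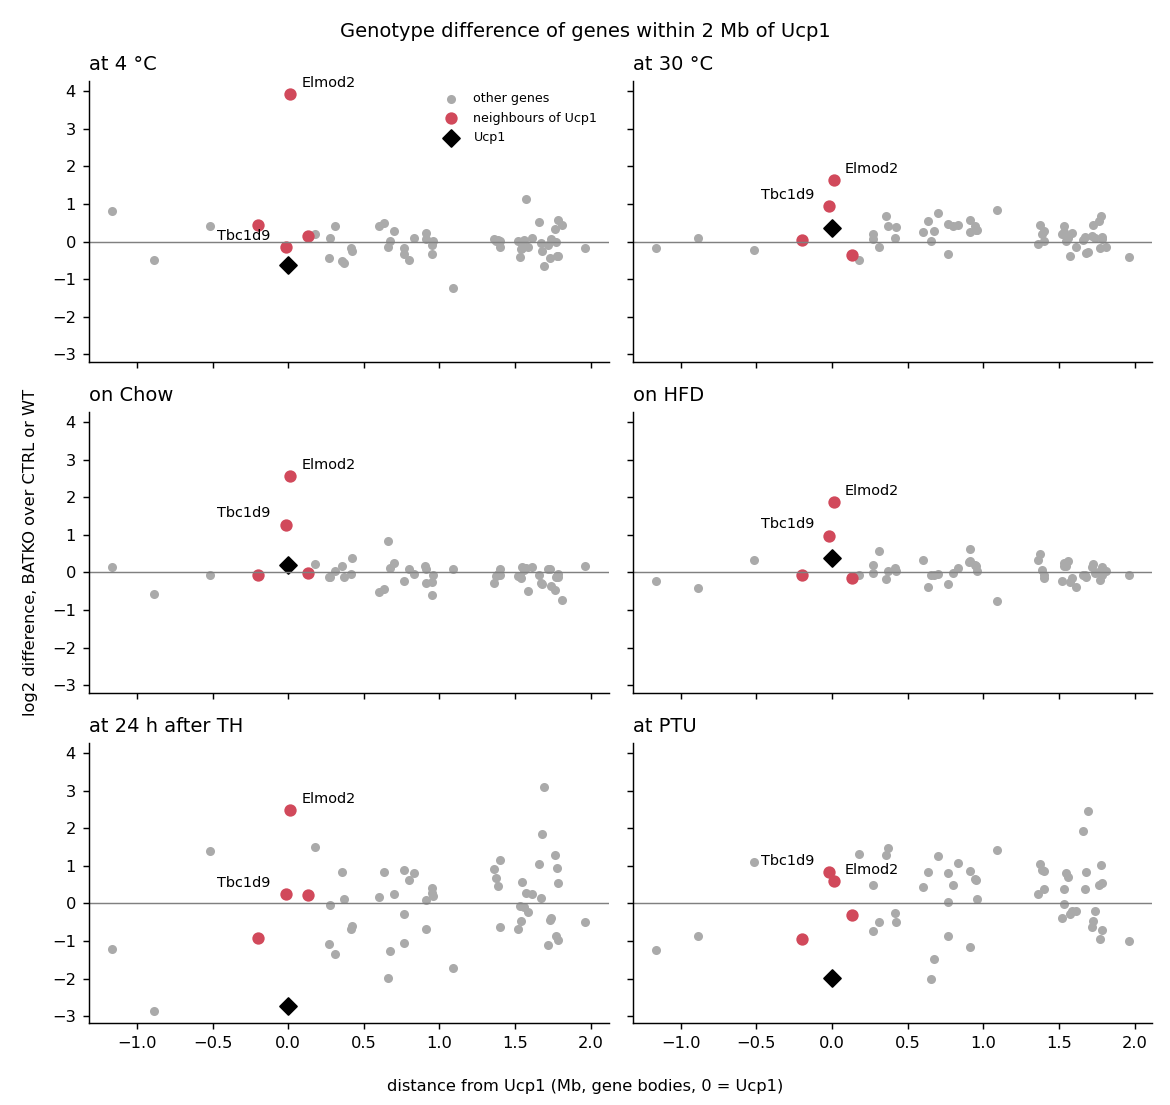
Log2 difference between BATKO and CTRL or WT mice (y axis) of each tested gene within 2 Mb of Ucp1, by distance between gene bodies in Mb (x axis, 0 is Ucp1), in the 6 comparisons of genotypes. Red points are Elmod2, Tbc1d9, Rnf150 and Scoc, the black diamond is Ucp1 and grey points are other genes. Elmod2, 14.2 kb away, stands above the other genes at 4 °C, 30 °C, on Chow and on HFD.

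Responses to TH, cold and diet within a genotype are another contrast than the one that led to the choice of the genes, although they share mice with it. They were tested with edgeR, with Benjamini-Hochberg adjustment over all genes. In hypothyroid WT mice, Elmod2 fell after TH while Ucp1 rose. Elmod2 had 48.4, 66.1, 107 and 128 CPM at 3 h, which overlapped with PTU, and 37.8, 43.8, 48.5 and 49.5 CPM at 6 h, which did not. At 12 h it had 29.0, 31.5, 39.6 and 41.6 CPM, and at 24 h the levels given above. The log2 fold change against PTU was -0.24 (SE 0.23, adjusted p = 0.535) after 3 h and -1.20 (SE 0.23, adjusted p = 0.000785) after 6 h. It was -1.51 (SE 0.23, adjusted p = 5.41e-05) after 12 h and -2.07 (SE 0.24, adjusted p = 1.21e-06) after 24 h. All mice at 6, 12 and 24 h were lower than every PTU mouse. Ucp1 had a mean of 5265 CPM on PTU and of 9748 to 13030 CPM after TH, with log2 fold changes of 0.87, 0.94, 1.32 and 0.93 and adjusted p-values (edgeR) of 0.0105, 0.00255, 7.77e-05 and 0.00164 in order of time.

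Of the other neighbours, Rnf150 was downregulated early. It had 19.1, 21.2, 21.9 and 25.2 CPM at 3 h and 17.6, 23.1, 28.3 and 29.6 CPM at 6 h, both apart from the PTU mice, with log2 fold changes of -0.77 (SE 0.19, edgeR adjusted p = 0.0145) and -0.60 (SE 0.19, adjusted p = 0.0294). At 12 and 24 h its log2 fold change was -0.06 and -0.02, with adjusted p = 0.849 and 0.948. The call at 3 h was lost without WT mouse B5 on PTU (adjusted p = 0.059), and that at 6 h without any 1 of 4 mice (highest adjusted p = 0.104). Scoc was downregulated at 24 h, with 13.2, 21.4, 24.6 and 33.5 CPM against 29.3, 36.3, 37.8 and 44.6 CPM on PTU (log2 fold change -0.68, SE 0.19, edgeR adjusted p = 0.00855). Its groups overlapped through 1 mouse on each side, and in a fit of only these groups the adjusted p was 0.0502. At 6 h the Scoc log2 fold change was -0.47, which did not pass the test, and passed it in a fit of only those groups (adjusted p = 0.0187). Tbc1d9 had 2.83, 3.68, 4.21 and 4.61 CPM at 3 h against 1.99, 2.22, 2.46 and 2.47 on PTU, with a log2 fold change of 0.73 (SE 0.26) that did not pass the test (edgeR adjusted p = 0.0786, or 0.0439 in a fit of only these groups). Of the 4 genes tested, the number called was 1 at the first time, 2 at 6 h, 1 at 12 h and 2 at the last, all of them lower. Among all genes, 9.19%, 23%, 25.7% and 32.7% were called at these times. Of these genes, 532 of 1195, 1417 of 2996, 1577 of 3346 and 2013 of 4252 were lower after TH. The 4 comparisons share the PTU mice. Skeletal muscle markers summed to 58.4 to 591 CPM on PTU and 240 to 1018 CPM at 24 h, and endothelial markers to 294 to 315 and 285 to 323 CPM. Endothelial markers were apart from PTU at 3 h (326 to 341 CPM) and at 12 h (224 to 285 CPM). Brown adipocyte markers were apart at 6 h (18300 to 21110 against 14950 to 16950 CPM). Of these last sums, Ucp1 alone made 9678 to 11459 CPM at 6 h and 4496 to 6121 CPM on PTU. The part of these cells in the changes was not tested.

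In BATKO mice, none of the 4 genes responded to TH past the test. Elmod2 had a log2 fold change of -0.18 (SE 0.29, edgeR adjusted p = 0.986), and -0.42 (SE 0.22, adjusted p = 0.844) without BATKO mouse 11. Rnf150, Scoc and Tbc1d9 had log2 fold changes of 0.02, -0.16 and -0.25, each with an adjusted p above 0.96. Without BATKO mouse 11, that of Tbc1d9 was -0.50 (SE 0.32, adjusted p = 0.844). Over all genes, 0% were called (0 of 14178), 673 had an unadjusted p under 0.05, and DESeq2 called 0 as well. The difference between the genotypes' responses is made of the genotype differences that led to the choice of the genes and is given without a test. At 24 h it was 1.89 on the log2 scale for Elmod2 (BATKO minus WT, SE 0.44), and 1.64 without BATKO mouse 11. It was -0.59 for Tbc1d9 (-0.84 without that mouse), 0.04 for Rnf150 and 0.51 for Scoc.

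**Figure D3:**
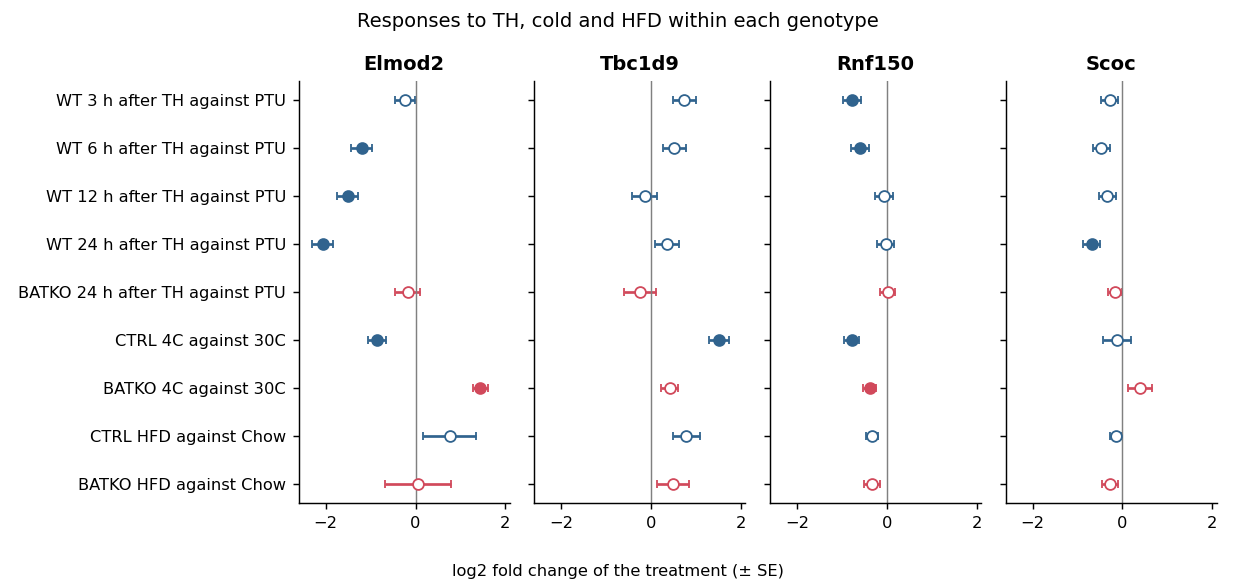
Log2 fold changes (x axis, ± SE) of Elmod2, Tbc1d9, Rnf150 and Scoc for each treatment within a genotype (rows), WT or CTRL in blue and BATKO in red. Filled points passed edgeR's test at an adjusted p under 0.05. Elmod2 fell with cold in CTRL mice (-0.85) and rose in BATKO mice (1.45).

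In the cold, Elmod2 moved in opposite directions in the 2 genotypes. From the values per mouse given above, its mean fell from 23.7 ± 4.84 (SD, n = 4) at 30 °C to 13.1 ± 2.21 CPM (SD, n = 3) at 4 °C in CTRL mice, a log2 fold change of -0.85 (SE 0.20, edgeR adjusted p = 0.00221). In BATKO mice it rose from 73.3 ± 6.10 (SD, n = 5) to 199.7 ± 49.7 CPM (SD, n = 4), a log2 fold change of 1.45 (SE 0.17, edgeR adjusted p = 6.61e-06). The temperature groups did not overlap in either genotype. As a description, the difference between the responses was 2.30 (BATKO minus CTRL, SE 0.26), which is the genotype difference at 4 °C less that at 30 °C. Ucp1 rose in both genotypes, by 4.40 (SE 0.52, adjusted p = 4.56e-06) in CTRL and 3.43 (SE 0.44, adjusted p = 2.22e-05) in BATKO mice. Brown adipocyte markers were higher at 4 °C without overlap in both genotypes, at the levels given above. Ucp1, which is in that list, had 13415 to 17186 CPM at 4 °C and 146 to 1301 at 30 °C in CTRL mice. In BATKO mice it had 6798 to 14214 and 427 to 1172 CPM. In CTRL mice, 4 other lists were lower at 4 °C than at 30 °C without overlap. Fibroblast or preadipocyte markers went from 383 to 539 CPM to 289 to 302, macrophage markers from 60.7 to 100.4 to 46.2 to 58.7, Schwann cell markers from 30.1 to 50.2 to 8.69 to 26.5 and lymphocyte markers from 5.73 to 7.83 to 1.81 to 4.40. None of these 4 lists was apart in BATKO mice. The part of these cells in the responses to cold was not tested.

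Tbc1d9 was upregulated by cold in CTRL mice, to 7.00, 7.56 and 10.1 CPM at 4 °C from 2.49 to 3.50 CPM at 30 °C (log2 fold change 1.52, SE 0.22, edgeR adjusted p = 3.73e-05). In BATKO mice it had a log2 fold change of 0.42 (SE 0.19) and did not pass the test (adjusted p = 0.0888). The responses differed by -1.10 (SE 0.29), given without a test. The CTRL mice at 4 °C thus reached the Tbc1d9 level of the BATKO mice, whose range was 4.36 to 9.16 CPM over both temperatures. Rnf150 was downregulated by cold in CTRL mice, with 12.5, 14.3 and 17.3 CPM at 4 °C and 18.8, 25.8, 27.02 and 29.8 CPM at 30 °C (log2 fold change -0.78, SE 0.17, edgeR adjusted p = 0.000994). In BATKO mice it fell to 16.9, 19.6, 19.9 and 23.1 CPM from a mean of 25.9 ± 2.43 CPM (SD, n = 5). The log2 fold change was -0.38 (SE 0.14, edgeR adjusted p = 0.0425), and the call was lost when any 1 of 8 of the 16 mice was left out. These responses differed by 0.40 (SE 0.22). Scoc did not pass the test in either genotype, with log2 fold changes of -0.12 (edgeR adjusted p = 0.764) and 0.39 (0.271). In all, 3 of 4 genes were called in CTRL and 2 of 4 in BATKO mice, where 49.1% and 40.3% of all genes were called.

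On HFD, none of the 4 genes passed the test in either genotype with all mice. Among all genes, 3.94% were called in CTRL mice and 0.0696% in BATKO mice (9 of 12932). DESeq2 called 864 of 13371 and 249 of 11361. In CTRL mice, Elmod2 had a log2 fold change of 0.76 (SE 0.59, edgeR adjusted p = 0.486), which turned to -0.85 (SE 0.21, adjusted p = 0.0441) without CTRL mouse 9. That mouse was picked for its Elmod2 value, so the p-value without it supports nothing. The other 3 CTRL mice on HFD, at 17.5 to 18.2 CPM, were all below the CTRL mice on Chow, at 27.3 to 43.2 CPM. In BATKO mice the log2 fold change of Elmod2 was 0.06 (SE 0.74, edgeR adjusted p = 0.977). In the fit without CTRL mouse 9 it was also 0.06, with an SE of 0.23. Tbc1d9 had log2 fold changes of 0.79 in CTRL mice (edgeR adjusted p = 0.156; 0.36 without mouse 9, adjusted p = 0.426) and 0.49 in BATKO mice (0.527). Rnf150 and Scoc had log2 fold changes between -0.33 and -0.14 in both genotypes. In CTRL mice, the markers of macrophages (57.5 to 69.1 CPM on Chow, 83.4 to 229 on HFD), of fibroblasts or preadipocytes (393 to 612, 633 to 896) and of brown adipocytes (7999 to 9356, 9456 to 11140) were higher on HFD without overlap. In BATKO mice, those of brown adipocytes were higher (8814 to 10220, 11000 to 12110) and those of macrophages (147 to 183, 62.5 to 132.6) and fibroblasts or preadipocytes (858 to 874, 689 to 843) lower on HFD, and Schwann cell markers higher (9.93 to 10.3, 11.2 to 29.4). Their part was not tested.

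Over the 59 mice, with log2 CPM centred within each experiment, the genes most like Elmod2 were Morf4l2 (Pearson r = 0.599), Fbxw2 (0.591), Slc24a3 (0.590), Eef2kmt (0.589) and AC139296.1 (0.569), of 12275 genes. These values describe mice that share libraries, experiments and genotypes. Centred within each of the 15 groups, r fell to between 0.04 and 0.35 for these 5 genes. The most like gene was Parvb for Tbc1d9 (0.646), Mob3b for Rnf150 (0.825) and Rasa1 for Scoc (0.821). Centred within groups these were 0.386, 0.48 and 0.834, and Spearman's rho for Scoc and Rasa1 was 0.695. Elmod2 and Tbc1d9, which flank Ucp1, had r = 0.52, so that Tbc1d9 was number 21 of 12274 genes in likeness to Elmod2. For Elmod2 and Tbc1d9, r centred within groups was 0.65. This value rested in part on the 2 mice named above, since it was 0.415 over the other 57 mice, 0.536 over 23 BATKO mice and 0.307 over 34 CTRL or WT mice. The r between Elmod2 and Ucp1 was -0.18 centred within experiments and 0.11 centred within groups.

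**Figure D4:**
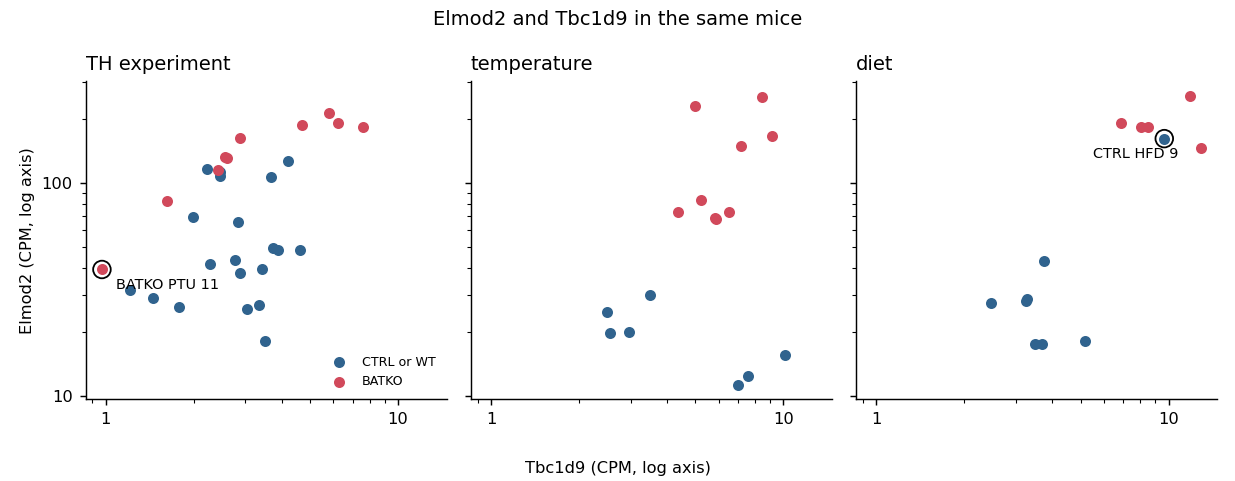
Elmod2 (y axis) against Tbc1d9 (x axis) in CPM on log axes in each mouse of the 3 experiments, BATKO in red and CTRL or WT in blue, with CTRL mouse 9 on HFD and BATKO mouse 11 on PTU circled. In the diet experiment the CTRL mouse 9 sits with the BATKO mice, and in the TH experiment BATKO mouse 11 has the lowest Tbc1d9 level, 0.970 CPM. At 4 °C, CTRL mice join a high Tbc1d9 level with Elmod2 under 16 CPM.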

How the data were processed

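BAT RNA was extracted with Trizol and libraries were made with the Lexogen SENSE total RNA kit and sequenced on a NextSeq 500. The authors aligned reads to GRCm38 (mm10) with Bowtie2 (version 2.3.2.2 in the submitters' processing notes), removed alignments of quality below 10, counted reads per gene with htseq-count and deposited raw counts. The annotation and strand setting are not given in the sources used here, so that reads of overlapping genes on opposite strands could not be told apart. The 59 columns were matched to mice by their labels, and 0 were left unmatched.

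The main test was the quasi-likelihood test of edgeR 4.0.16 under R 4.3.3, on TMM-normalized counts. Each SE is the absolute log2 value divided by the square root of F, the statistic of that test. Genes entered it with a mean above 10 normalized counts, and p-values were adjusted by Benjamini-Hochberg over all of them, with a threshold of 0.05. The WT time course was fitted over the 20 WT mice, the other comparisons over all mice of their experiment. DESeq2 (version 1.42.0) was an alternative. Differences between genotypes, also in a response, were described without a test, since the genes were chosen on them. CPM used TMM library sizes, with a prior count of 2 for correlations. Positions came from GENCODE M21. The 6 genes, the marker lists and the comparisons were chosen with earlier results of these data known. Named genes were the 6, Ucp1, genes within 2 Mb of it and those most correlated. Mice were taken as separate animals by their labels. The fits were tested on simulated data. The values of 1 gene of the region are not reported here.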

Additional observations from a re-analysis of the deposited data

Results flagged for a closer look

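Within groups of 4 or 5 mice, 6 of 60 gene and group pairs had a mouse far from the others, where about 3 would be flagged by chance. For Elmod2 these were CTRL mouse 9 on HFD (gap over range 0.995, 162 against 17.5 to 18.2 CPM), CTRL mouse 2 on Chow (0.926, 43.2 against 27.3 to 28.5 CPM) and WT mouse B27 at 24 h after TH (0.863, 18.1 against 25.7 to 26.9 CPM). Rnf150 was low in WT mouse B23 at 12 h (0.93, 21.9 against 38.8 CPM or more). Tbc1d9 was high in BATKO mouse 10 at 24 h after TH (0.79, 7.56 against 1.62 to 2.87 CPM), and Ucp1 in BATKO mouse 15 at 24 h after TH (0.775, 2410 against 1110 to 1400 CPM). BATKO mouse 11 on PTU stood apart for Elmod2 and Tbc1d9 without passing this limit.

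Elmod2 was lower in each of the 3 CTRL mice at 4 °C than in any of the 4 other CTRL mice at 30 °C, and higher in each of the 4 BATKO mice at 4 °C than in any of the 5 at 30 °C. The log2 responses differed by 2.30 (BATKO minus CTRL). The difference was not tested, since it is made of the genotype differences that led to the choice of the gene.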

How the results depend on the processing

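Settings other than leaving out a mouse gave 556 values, of which 543 kept their direction and side of the threshold or, without a test, moved by less than the spread between mice. Leaving out each mouse in turn gave 1784, of which 1712 did. The Elmod2 responses to TH at 6, 12 and 24 h in WT mice and to cold in both genotypes kept their calls in every alternative run. Fits of only the groups compared called 2 of the 4 genes at 3 h (Tbc1d9 joined, adjusted p = 0.0439) and 1 at 24 h (Scoc was lost, 0.0502), and Scoc passed at 6 h (0.0187). Without the filter 1 was called on HFD in CTRL mice (Tbc1d9, 0.0477), Scoc also passed at 6 h (0.0434) and Rnf150 lost its call in BATKO mice in the cold (0.0863), where Mgat4d was called (0.0444). Over all genes on HFD, edgeR called 509 in CTRL and 9 in BATKO mice, and DESeq2 864 and 249. The median of other genes near Ucp1 on PTU was 0.39, and 0.11 within 5 Mb or 0.066 for means above 50. At 24 h after TH it was 0.13, and -0.26 for means above 50.

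With each mouse left out, the number of genes called was 0 to 2 at 3 h, 1 to 3 at 6 h, 1 to 2 in BATKO mice in the cold and 0 to 1 in CTRL mice on HFD. The 0 at 3 h came without WT mouse B5 on PTU (Rnf150, adjusted p = 0.059). Rnf150 at 6 h also lost its call without WT mice B4 or B5 on PTU or B12 or B15 at 6 h. The number of genes apart and higher in BATKO was 0 to 2 on PTU, 1 to 2 at 4 °C and 0 to 2 on HFD. That of genes apart and lower was 1 to 2 on PTU and 0 to 1 at 24 h after TH. At 24 h after TH, the number lower was 0 with all mice and 1 in 20 of the 30 runs. On HFD, the genotype difference of Elmod2 was between 1.57 and 3.46, its response between -0.85 and 1.05 in CTRL and between -0.19 and 0.24 in BATKO mice, and the difference between these between -0.996 and 0.91. Log2 fold changes near 0 changed sign for Rnf150 at 12 h (-0.16 to 0.10), at 24 h in WT (-0.12 to 0.12) and BATKO mice (-0.10 to 0.090), for Tbc1d9 at 12 h (-0.45 to 0.033) and for Scoc in the cold in CTRL mice (-0.43 to 0.10). Genotype differences changed sign for Tbc1d9 at 24 h after TH (-0.31 without BATKO mouse 10, to 0.42) and at 4 °C (-0.29 to 0.00054), for Rnf150 at 30 °C (-0.088 to 0.092), on Chow (-0.26 to 0.082) and on HFD (-0.15 to 0.042), and for Scoc at 4 °C (-0.11 to 0.42) and on Chow (-0.18 to 0.13). The causes were not tested, other than that CTRL mouse 9 set the values of Elmod2 on HFD. RLE size factors, and leaving mitochondrial genes out of the library size, moved the median of all genes by at most 0.04.

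Groups of 2 to 5 mice limit the precision, and counts of at most 5 per mouse that of Clgn and Mgat4d. No paired analysis was possible because the groups set against each other by a test have no mouse number in common, and a number found in 2 genotypes or experiments stands for different mice.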
